A study of Homo sapiens with 12 samples.

Results

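The response of the lymphoma line OCI-Ly7 to 1 μM PLS-123 was described across all genes that the array reads, by comparing the 3 arrays of cells given PLS-123 with the 3 arrays of cells given vehicle. These are 6 of the 12 arrays of the series, and 54613 of its 54675 probe sets entered the comparison once the 62 control probe sets were set aside. OCI-Ly7 is an established diffuse large B-cell lymphoma line, a form of B-cell non-Hodgkin lymphoma (B-NHL), and the labels name no altered gene in any group. PLS-123 is a covalent inhibitor of Btk, and all cells of the series were harvested after 24 hours with vehicle, 1 μM PLS-123, 1 μM ibrutinib or 10 μM ibrutinib, with 3 samples in each group. RNA of each sample was read on its own Affymetrix human genome array, which measures a gene by 1 or more probe sets of short oligonucleotides. Whether the 3 samples of a group came from separate cultures of this 1 line is not in the labels, so p values measure only the spread between these samples, which may be technical.

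Btk is a cytoplasmic tyrosine kinase that passes the signal of the B-cell receptor on to phospholipase C, calcium, NF-κB, NFAT and ERK. Germinal centre B cells, from which many diffuse large B-cell lymphomas derive, hold a set of surface receptors and transcription factors, among them BCL6 and IRF8, that sets them apart from naive B cells and plasma cells. Receptor signals also govern nutrient uptake, the choice of metabolic fuel and entry into the cell cycle in B cells. The values below are intensities normalised by RMA (robust multi-array average, which puts arrays on a common scale), and all fold changes are on the log2 scale, as PLS-123 minus vehicle with the standard error, n = 3 arrays per group. Each gene is read by its brightest probe set, by the mean of all 12 arrays, of those annotated to that gene alone, and "fell" or "rose" means an adjusted p under 0.05 by limma with the Benjamini-Hochberg method over all 54613 probe sets. Other probe sets of a gene may differ, and the calls lost by the median over a gene's probe sets are listed at the end.

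With PLS-123, 5664 probe sets fell (10.4% of those tested) and 3476 rose (6.36%). Read by gene, 2536 of 19775 genes fell (12.8%) and 1492 rose (7.54%), and the median over all genes was -0.04. Large changes leaned the other way: 154 genes fell and 235 rose by at least 2-fold. The arrays of the groups did not overlap in 3999 of the 4028 genes called, so a lack of overlap, where it is given below, is a description that nearly every called gene shares. The share of called probe sets that fell depended on how arrays were scaled. It was 62.0% as deposited, 52.4% after a further quantile normalization, 53.7% after centring on the mean of 100 normalization control probe sets and 72.5% after centring on their median. RNA quality differed as well: the log2 difference between the 3' and 5' control probe sets of ACTB, which grows as transcripts are shortened, was 2.93 ± 0.20 (SD, n = 3) with PLS-123 and 2.64 ± 0.04 with vehicle. For GAPDH it was 0.45 ± 0.02 and 0.31 ± 0.04, and neither pair of groups overlapped. With the ACTB difference as a covariate 1928 probe sets fell and 1552 rose, and its part in the results below was not tested.

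**Figure D1:**
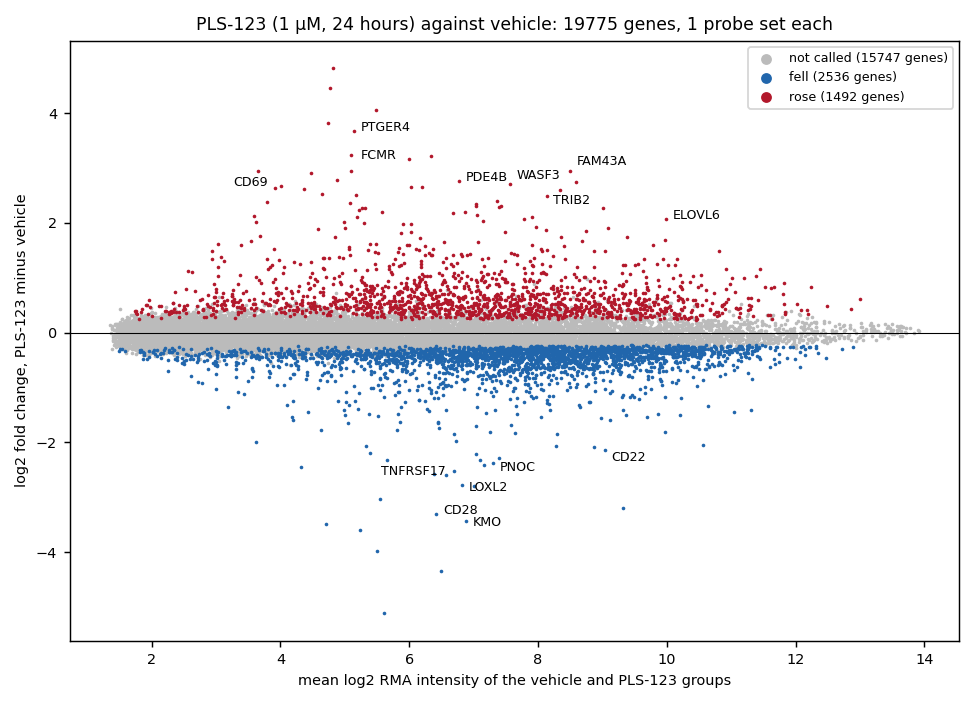
Log2 fold change of each of 19775 genes, PLS-123 minus vehicle, against the mean log2 RMA intensity of the 2 groups, 1 point per gene. Blue points mark the 2536 genes that fell, red points the 1492 that rose and grey points those that did not pass the test, and the named genes reach changes from -3.43 (KMO) to 3.67 (PTGER4, dim with vehicle).

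The arrays read as the B-cell line that the labels name. Of 14 measured B-cell markers 13 were not dim, where dim stands for a mean log2 below 3.87, the level of the median probe set. The summed intensity of these markers ran from 25110 to 26090 with vehicle and from 20700 to 21840 with PLS-123, and 8 of them fell while 3 rose. A gene may also be dim in 1 group alone, as 13 of the called genes described below were. Its level there lies near background, so its change is given as at least the fold between the other group and the dim level. Of 19 T and NK cell markers 10 were dim, among them CD3D, CD8A and GNLY, and the sum of the list ran from 1887 to 1920 with vehicle and from 1268 to 1364 with PLS-123. Most of that sum was LCK, a Src family kinase, which read 1641, 1622 and 1614 with vehicle and 1031, 1034 and 950 with PLS-123 and fell by 0.69 ± 0.07, while ZAP70 rose by 0.59 ± 0.11 and 17 members were not called. Of 11 myeloid markers 7 were dim, CD14 and LYZ included, with sums of 145 to 156 and 131 to 148, and 2 fell. Of 14 stromal and epithelial markers 9 were dim, EPCAM included, with sums of 542 to 597 and 544 to 598, and 1 fell. In bulk RNA, fewer cells of a state and less RNA per cell cannot be told apart.

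Outside the gene groups described below, the largest changes included those of a phosphodiesterase, a pseudokinase and a cytoskeletal gene. PDE4B, which breaks down cyclic AMP and is a known brake on its signalling in B cells, read 44.9, 39.7 and 42.3 with vehicle and 324, 288 and 249 with PLS-123, a change of 2.76 ± 0.10 (adjusted p = 1.01e-09). TRIB2, a pseudokinase, read 112, 131 and 113 with vehicle and 705, 669 and 631 with PLS-123 (2.49 ± 0.09, adjusted p = 4.29e-10). WASF3, a regulator of actin assembly, read 78.4, 72.7 and 71.8 with vehicle and 482, 472 and 498 with PLS-123 (2.71 ± 0.08). All 6 probe sets of these 3 genes rose. TP53INP1, a stress gene of the p53 pathway (2.60 ± 0.09), LITAF, an endosomal membrane protein (2.40 ± 0.10), FAM43A (2.95 ± 0.08) and STXBP6, a binder of SNARE proteins (2.31 ± 0.10), rose as well. So did RNA45SN5, 1 of the near-identical copies of the ribosomal RNA precursor, which the probe set may not tell apart, by 2.75 ± 0.12. On the falling side, LOXL2, an oxidase of lysine residues in matrix proteins, read 331, 291 and 271 with vehicle and 44, 42.4 and 43.3 with PLS-123 (-2.78 ± 0.10, adjusted p = 7.15e-10) by 1 of its 4 probe sets, while the other 3 were not called. PNOC, the precursor of the peptide nociceptin, read 344, 386 and 354 with vehicle and 66.4, 71.1 and 71.1 with PLS-123 (-2.38 ± 0.09, adjusted p = 8.01e-10).

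**Figure D2:**
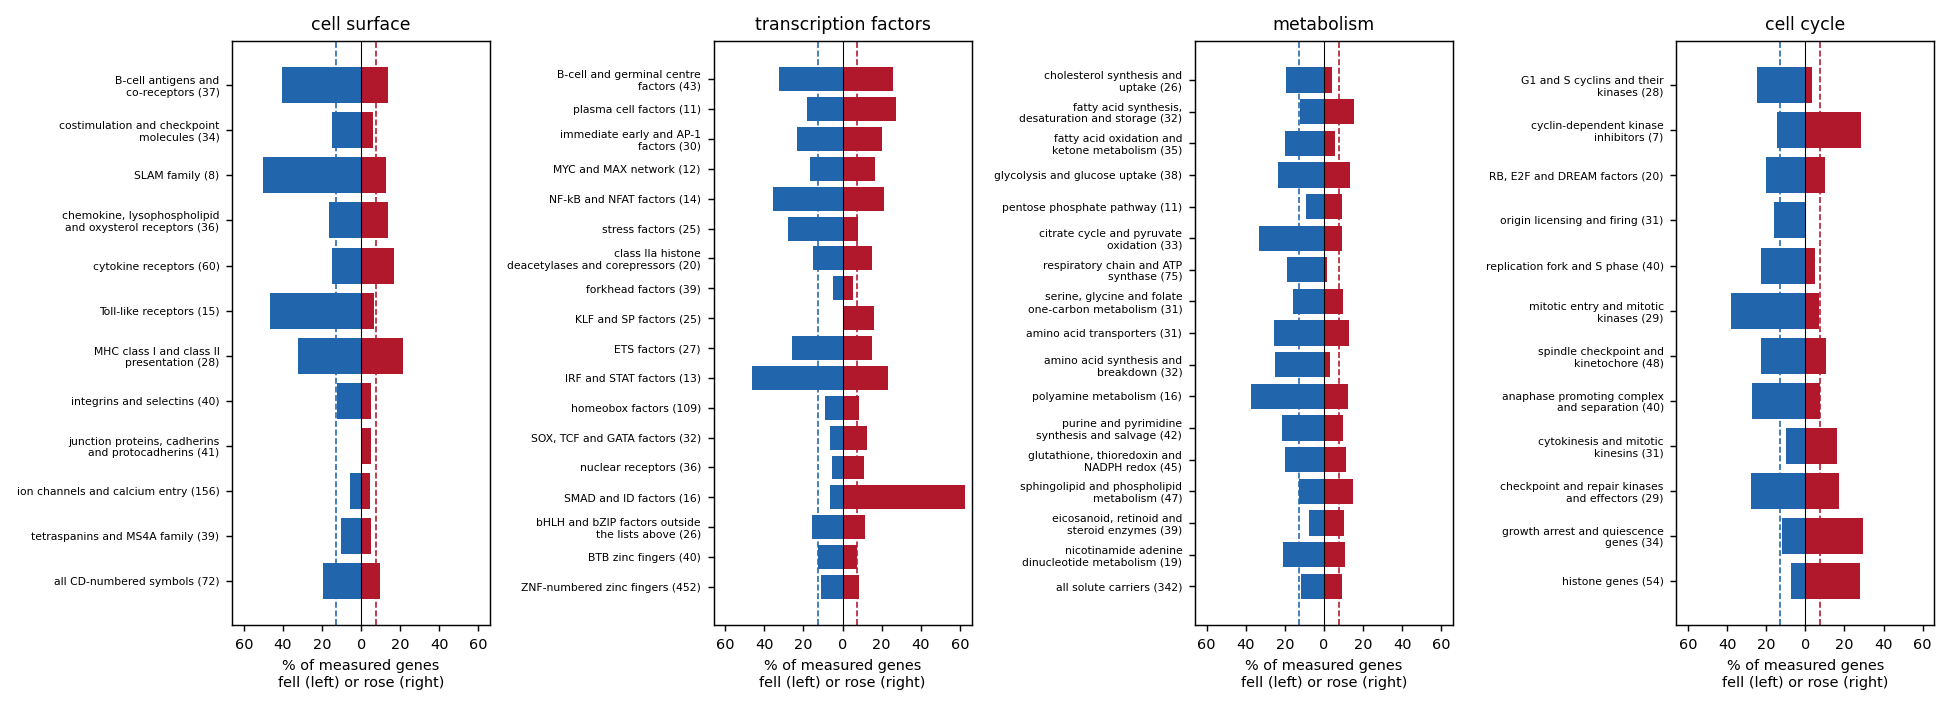
Percent of the measured genes of each list that fell (blue, to the left) or rose (red, to the right) with PLS-123, for the lists of the 4 categories, with the number measured in brackets. The dashed lines mark the shares over all genes, 12.8% and 7.54%. The longest bars are the 62.5% of SMAD and ID factors that rose and the 50.0% of the SLAM family that fell. The lists were chosen with earlier results of these data known.

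Cell surface genes changed in both directions, and the SLAM receptors, Toll-like receptors and B-cell antigens held the largest shares of falls among them. Of 515 measured surface genes 69 fell (13.4%) and 45 rose (8.74%), shares close to those of all genes, and the counts were 65 and 52 after quantile normalization and 38 and 37 with the ACTB covariate. Lists of these genes, and all lists of the other categories below, are described by their counts, to be read beside the 12.8% and 7.54% of all genes. The lists were chosen with earlier results of these data known, so a ranking of their shares is a description and not a test.

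Among B-cell antigens and co-receptors, 15 of 37 fell (40.5%) and 5 rose (13.5%). TNFRSF17, the receptor BCMA of B cells and plasma cells, read 228, 261 and 213 with vehicle and 40.5, 37.3 and 37.8 with PLS-123, a change of -2.60 ± 0.10 (adjusted p = 6.59e-10). CD22, a lectin that dampens B-cell receptor signals, read 1120, 1098 and 1090 with vehicle and 244, 241 and 266 with PLS-123 (-2.14 ± 0.08, adjusted p = 1.45e-09), and all 4 of its probe sets fell. The 3 arrays of each group lay close together in both genes. CD48, an adhesion ligand, read 1382, 1455 and 1393 with vehicle and 483, 500 and 464 with PLS-123 (-1.55 ± 0.08). CD72, another inhibitory co-receptor, changed by -1.04 ± 0.10 and SIGLEC10, a lectin related to CD22, by -0.93 ± 0.10. MS4A1 and CD38 fell less: MS4A1, the antigen CD20, read 5254, 5096 and 5690 with vehicle and 3586, 3212 and 3646 with PLS-123 (-0.62 ± 0.10, adjusted p = 0.000558), and CD38, an ectoenzyme that consumes NAD, read 875, 943 and 851 with vehicle and 528, 531 and 497 with PLS-123 (-0.78 ± 0.09). The signalling chains of the B-cell receptor moved little. CD79A fell by 0.29 ± 0.09 (adjusted p = 0.0358) and CD79B rose by 0.31 ± 0.08 (adjusted p = 0.0203). The largest gain of the list was MME, the peptidase CD10 of germinal centre B cells, which read 558, 565 and 560 with vehicle and 1804, 1819 and 1813 with PLS-123 (1.69 ± 0.07, adjusted p = 2.88e-09). Its arrays were tight in both groups, and both of its probe sets rose. SPN, the sialoglycoprotein CD43, and CD24 rose by 0.62 and 0.42. The call of CD79A was lost without any 1 array other than PLS-123 B (highest adjusted p = 0.15, without PLS-123 C) and that of CD79B without any 1 other than PLS-123 C (highest adjusted p = 0.0739, without PLS-123 A).

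Molecules through which B cells meet T cells were mostly not called, but a few fell far. Of 34 costimulation and checkpoint genes, 5 fell and 2 rose. CD28, best known as the costimulatory receptor of T cells, read 279, 256 and 272 with vehicle and 30, 23.2 and 29.4 with PLS-123, the largest fall among the surface genes measured here (-3.30 ± 0.10, adjusted p = 2.09e-10). TNFSF8, the ligand of CD30, changed by -1.05 ± 0.09, HAVCR2, the receptor TIM-3, by -0.86 ± 0.11 and CD86, a ligand of CD28, by -0.73 ± 0.08. CD27, a TNF receptor found on memory B cells, rose instead, from readings of 484, 487 and 463 to 1103, 1158 and 1091 (1.22 ± 0.08). Among the 8 SLAM family receptors, which tune contacts of lymphocytes, 4 fell and 1 rose, and the falls include CD48, already counted among the B-cell antigens. SLAMF1 read 44.9, 50.7 and 42.3 with vehicle and 13.9, 11.9 and 14.7 with PLS-123 (at least 3.13-fold lower, dim with PLS-123), CD84 changed by -0.94 ± 0.08, and LY9 fell by 0.37 ± 0.10, a call lost without PLS-123 B (adjusted p = 0.0653), vehicle A (0.0658) or vehicle C (0.0611). Their cytoplasmic adaptor SH2D1A moved the other way and read 9.38, 14.3 and 9.96 with vehicle and 202, 192 and 159 with PLS-123, at least 12.6-fold higher and dim with vehicle.

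Receptors that guide B cells through lymphoid tissue moved in opposite directions. Of 36 receptors for chemokines, lysophospholipids and oxysterols, 6 fell and 5 rose. GPR18 (-1.68 ± 0.10) and P2RY8 (-1.49 ± 0.09) led the falls, and S1PR2 fell by 0.63 ± 0.08. P2RY8 and S1PR2 are the receptors known to confine B cells to the germinal centre, and P2RY8 read 1096, 1124 and 1122 with vehicle and 401, 396 and 390 with PLS-123. Other receptors rose. PTGER4, the prostaglandin E2 receptor EP4, read 9.47, 9.07 and 11.4 with vehicle and 126, 120 and 133 with PLS-123 (at least 8.64-fold higher, dim with vehicle, adjusted p = 1.48e-09) by 1 of its 2 probe sets, and the other was not called. ACKR3, a scavenging receptor for the chemokine CXCL12, read 30.2, 22.7 and 25.6 with vehicle and 177, 164 and 152 with PLS-123 (2.66 ± 0.11, adjusted p = 2.77e-09), and CXCR4, the signalling receptor for the same chemokine, rose by 0.83 ± 0.09. CCR7, which leads lymphocytes into lymph nodes, was dim with vehicle and read 7.22, 5.69 and 5.26 with vehicle and 20.9, 16.1 and 17.6 with PLS-123 (at least 1.24-fold). S1PR4 rose by 1.36 ± 0.10, whereas CXCR5 changed by 0.20 ± 0.16 (adjusted p = 0.454) without passing the test, nor did GPR183, which was dim in both groups.

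Among 60 cytokine receptors 10 rose and 9 fell, or 9 and 11 after centring on the median of the controls, and the larger changes were gains. IL7R, the receptor of interleukin 7, read 516, 500 and 500 with vehicle and 1343, 1252 and 1236 with PLS-123 (1.34 ± 0.08, adjusted p = 1e-07). FAS, the death receptor, read 64.7, 69.1 and 68.1 with vehicle and 166, 151 and 154 with PLS-123 (1.22 ± 0.08), and IL17RA rose by 1.08 ± 0.10. TGFBR1, a receptor kinase for TGF-β, read 688, 651 and 857 with vehicle and 1979, 1432 and 1773 with PLS-123 (1.24 ± 0.21, adjusted p = 0.000873), by 1 of 3 probe sets and with more spread than the others. BMPR1B, a receptor of bone morphogenetic proteins, was dim with vehicle and rose at least 6.87-fold. The falls were FGFR1 (-1.16 ± 0.08), CSF2RB, the shared chain of receptors for GM-CSF and interleukins 3 and 5 (-1.06 ± 0.09), and IL4R (-0.84 ± 0.10), followed by 6 members that fell by at most 0.40 ± 0.08 (IFNAR1, a receptor chain for type I interferon).

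Several innate sensors fell, and genes of antigen presentation were mixed. Of 15 Toll-like receptors and their partners 7 fell (46.7%) and 1 rose, and these counts stood under every scaling tried, with 5 and 1 under the ACTB covariate. TLR10 read 294, 337 and 295 with vehicle and 62, 64.1 and 58.3 with PLS-123 (-2.33 ± 0.11), and LY96, the partner of TLR4, read 120, 126 and 124 with vehicle and 63.6, 57.1 and 65.1 with PLS-123 (adjusted p = 8.75e-06). LY86, which pairs with a TLR-like receptor of B cells, changed by -0.82 ± 0.09 and TLR9, a sensor of DNA, by -0.67 ± 0.09, while TLR1, dim with PLS-123, fell at least 1.27-fold. TLR3, a sensor of double-stranded RNA that was dim with vehicle, rose at least 1.39-fold. Of 28 genes of MHC class I and class II presentation 9 fell and 6 rose. HLA-DOB, which modulates the loading of class II molecules, read 109, 123 and 106 with vehicle and 20.7, 27.2 and 20.4 with PLS-123 (-2.32 ± 0.13), and HLA-DQB1 changed by -0.89 ± 0.09. CD74, the invariant chain that escorts class II molecules, read 1702, 1917 and 1805 with vehicle and 1113, 1087 and 906 with PLS-123 (-0.81 ± 0.09), while HLA-DRA, a chain of class II, was not called (-0.17 ± 0.07, adjusted p = 0.134, or 0.00615 with an intensity trend). The lipid-presenting molecules parted: CD1C read 304, 289 and 261 with vehicle and 59.8, 54.3 and 71.1 with PLS-123 (-2.21 ± 0.15) and CD1D read 35.8, 37.7 and 30.5 with vehicle and 146, 114 and 114 with PLS-123 (1.84 ± 0.11). B2M, the light chain of class I molecules, rose by 0.42 ± 0.12, a call lost without PLS-123 A or C or vehicle B or C (highest adjusted p = 0.079).

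Lists less tied to B cells changed in few members. Of 40 integrins and selectins 5 fell and 2 rose, and of 156 ion channels 9 fell and 7 rose (6 and 7 after centring on the mean of the controls). Of 41 junction proteins and cadherins 0 fell and 2 rose (2 fell at an unadjusted p under 0.05 by limma, and 1 by the methods' t-test with Benjamini-Hochberg adjustment). Both of the latter rose: TJP1, the tight junction protein ZO-1, read 6.38, 4.67 and 6.49 with vehicle and 134, 125 and 124 with PLS-123 (at least 8.73-fold, dim with vehicle), and PCDH9, a protocadherin, rose by 1.45 ± 0.09. Other lymphocyte receptors were among the gains. FCMR, an Fc receptor for IgM, read 17.7, 31.9 and 17.2 with vehicle and 191, 201 and 184 with PLS-123 (3.17 ± 0.18, adjusted p = 4.35e-08), and vehicle array B stood above the other 2 vehicle arrays. CD69, an early activation antigen, read 7.2, 7.12 and 5.17 with vehicle and 41.9, 43.1 and 37.6 with PLS-123 (at least 2.79-fold, dim with vehicle), and PTPRE, a tyrosine phosphatase with a receptor form, read 30.4, 25.9 and 23.5 with vehicle and 251, 242 and 249 with PLS-123 (3.23 ± 0.10).

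**Figure D3:**
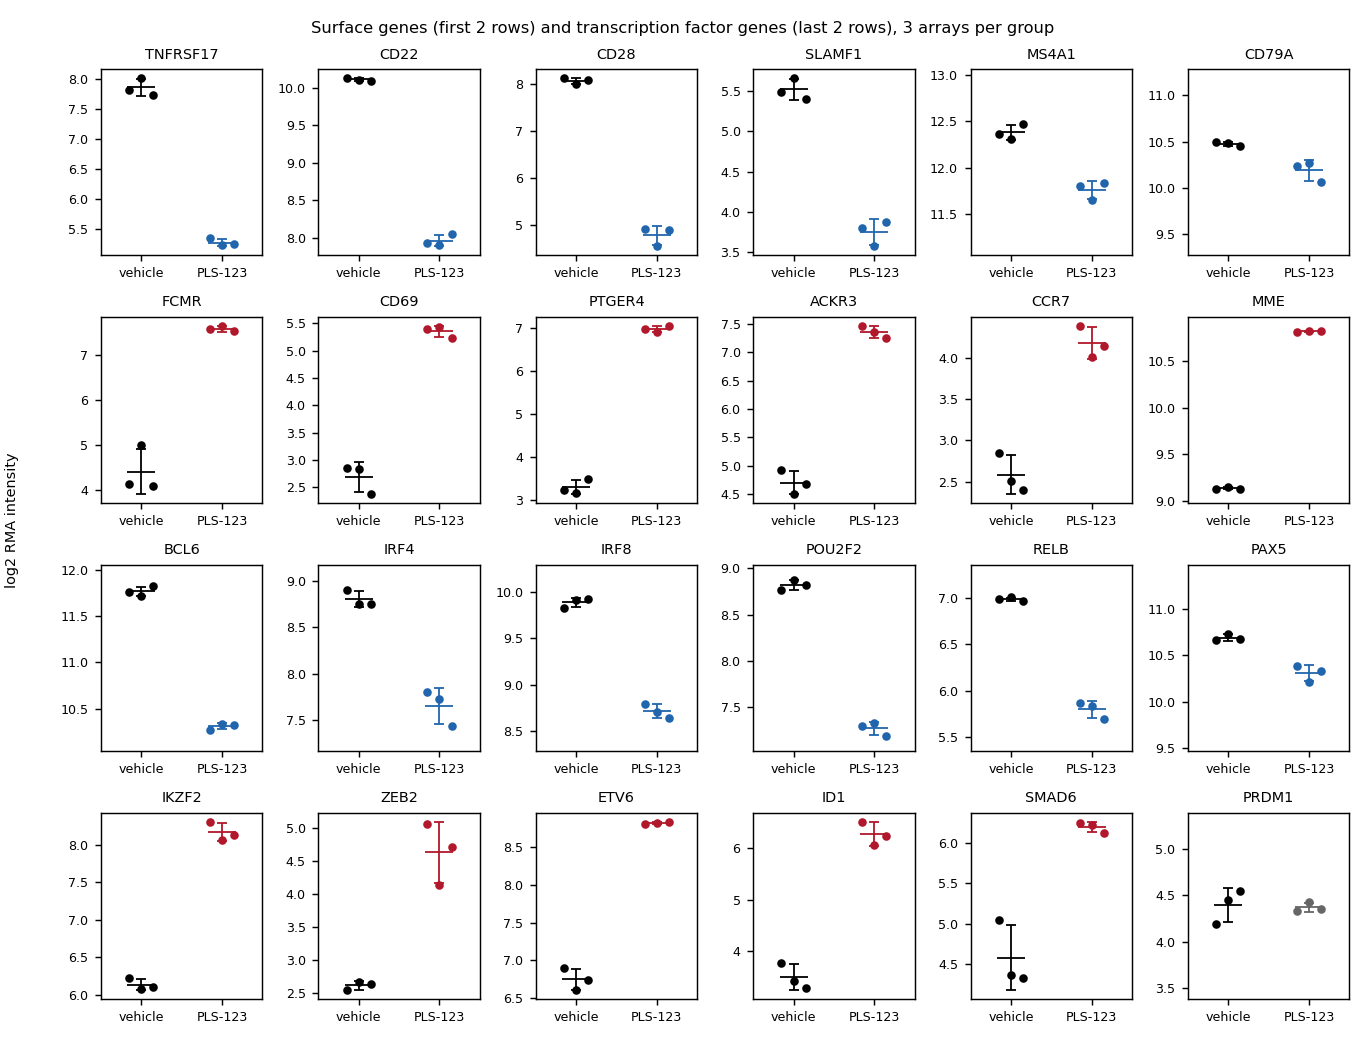
Log2 RMA intensity of 24 genes on each of the 3 vehicle arrays (black) and 3 PLS-123 arrays (blue where the gene fell, red where it rose, grey where it was not called), with the mean and SD of each group. The vertical axes differ between panels and each spans at least 2 log2 units; in all panels but that of PRDM1 the 2 groups do not overlap.

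Transcription factors changed in similar numbers each way. Of 935 measured, 116 fell (12.4%) and 104 rose (11.1%), beside 12.8% and 7.54% of all genes. The balance depended on the scaling, with 93 and 132 after quantile normalization, 93 and 117 after centring on the mean of the controls and 44 and 58 with the ACTB covariate. Of 43 B-cell and germinal centre factors 14 fell (32.6%) and 11 rose (25.6%), or 13 and 13 after quantile normalization.

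BCL6, IRF8 and POU2F2, factors of germinal centre B cells, fell. BCL6, the repressor that marks this stage, read 3467, 3368 and 3613 with vehicle and 1239, 1288 and 1285 with PLS-123 (-1.45 ± 0.08, adjusted p = 2.19e-08), and all 3 of its probe sets fell. IRF8, which acts with BCL6 in these cells, read 910, 964 and 967 with vehicle and 443, 417 and 399 with PLS-123 (-1.18 ± 0.08). POU2F2, the octamer factor OCT2, read 434, 469 and 452 with vehicle and 157, 162 and 146 with PLS-123 (-1.54 ± 0.09), by all of its 7 probe sets. In these 3 genes the groups did not overlap. MEF2D changed by -0.91 ± 0.12 and SPIB by -0.64 ± 0.09, whereas falls of the lineage factors EBF1 (-0.52 ± 0.09) and PAX5 (-0.38 ± 0.08) were smaller, and BACH2 did not pass the test (0.05 ± 0.08). The gains were led by IKZF2, the Ikaros family member Helios, which read 74.4, 67.3 and 68.9 with vehicle and 317, 268 and 281 with PLS-123 (2.04 ± 0.13) by 1 of 3 probe sets, and ZEB2, a repressor of epithelial genes, which read 5.84, 6.4 and 6.25 with vehicle and 33.2, 17.6 and 26.1 with PLS-123 (at least 1.7-fold, dim with vehicle). ID2, an inhibitor of E proteins, read 1037, 1074 and 1122 with vehicle and 3209, 2809 and 3072 with PLS-123 (1.49 ± 0.12) and FOXP1 rose by 0.78 ± 0.08.

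Factors of plasma cells did not move together. IRF4, which is needed for plasma cells and also acts in activated B cells, read 479, 432 and 430 with vehicle and 223, 212 and 173 with PLS-123 (-1.15 ± 0.10, adjusted p = 3.76e-06). PRDM1, the repressor Blimp-1, read 18.3, 21.8 and 23.3 with vehicle and 20.1, 21.6 and 20.5 with PLS-123 (-0.02 ± 0.12, adjusted p = 0.921), with overlapping groups, although 1 of its 3 probe sets rose. XBP1 rose by 0.37 ± 0.09, although not without vehicle A (adjusted p = 0.0626), and AFF3 by 0.94 ± 0.12. In all, 2 of 11 plasma cell factors fell and 3 rose.

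Of 14 NF-κB and NFAT factors 5 fell (35.7%) and 3 rose. RELB and NFKB2, which pair in the non-canonical branch of NF-κB, both fell: RELB read 126, 128 and 125 with vehicle and 58.2, 57.2 and 51.9 with PLS-123 (-1.19 ± 0.10) and NFKB2 changed by -0.74 ± 0.08. NFATC1, a factor that calcium signals activate, read 524, 563 and 528 with vehicle and 285, 288 and 266 with PLS-123 (-0.95 ± 0.10). NFKBIA, the inhibitor that holds NF-κB in the cytoplasm, rose by 0.54 ± 0.09, and NFKB1 did not pass the test (0.03 ± 0.11). Among IRF and STAT factors, 6 of 13 fell and 3 rose, and IRF1, an interferon response factor, read 96.3, 95 and 93 with vehicle and 206, 210 and 192 with PLS-123 (1.10 ± 0.09). Among 30 immediate early and AP-1 factors 7 fell and 6 rose. ELK3, also counted in the ETS family below, changed by 2.32 ± 0.21 and JUN by 0.81 ± 0.15. EGR1, dim with vehicle, was at least 1.54-fold higher, while FOS was dim in both groups and did not pass. In the ETS family 7 of 27 fell and 4 rose, or 4 and 5 after quantile normalization. ETV6, a repressor of that family, read 119, 97.6 and 107 with vehicle and 447, 450 and 457 with PLS-123 (2.07 ± 0.10, adjusted p = 1.47e-08), by all 5 of its probe sets.

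MYC itself read 1944, 2074 and 1931 with vehicle and 2335, 2260 and 2220 with PLS-123 and did not pass the test (0.20 ± 0.08, adjusted p = 0.1), but passed after quantile normalization (adjusted p = 0.0374), with an intensity trend (0.00616) and without dim probe sets (0.0306). MXI1, which competes with MYC for its partner MAX, read 182, 196 and 180 with vehicle and 470, 513 and 490 with PLS-123 (1.40 ± 0.08, adjusted p = 3e-08). Of 12 members of the MYC and MAX network 2 fell and 2 rose. HDAC9, a class IIa histone deacetylase, read 125, 134 and 143 with vehicle and 13.2, 22.3 and 14.7 with PLS-123 (-3.04 ± 0.16), while the other 5 called members among 20 deacetylases and corepressors changed by between -0.37 (HDAC10) and 0.52 (TLE4). Single members of other families moved far: CUX2 (-1.36 ± 0.10), FOXN3 (-1.04 ± 0.08) and the oestrogen receptor ESR2 (-1.09 ± 0.09) fell, and SATB1, an organiser of chromatin loops (1.58 ± 0.08), ZBTB18 (1.84 ± 0.13) and the vitamin D receptor VDR (1.60 ± 0.15) rose. HES1, a Notch target, rose by 1.42 ± 0.10 on the probe set used here, while 1 of its other probe sets fell. Of 452 zinc finger genes numbered as ZNF, 49 fell and 37 rose, or 39 and 47 after quantile normalization.

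The SMAD and ID factors had the largest share of gains of all lists, which were chosen with earlier results of these data known. They belong to the pathway of bone morphogenetic proteins and TGF-β: receptors phosphorylate SMAD1, SMAD9 and related factors, ID genes are their common targets, and SMAD6 and SMAD7 are inhibitors that the pathway induces against itself. Of 16 measured, 10 rose (62.5%) and 1 fell, with a median of 0.78, and 11 rose after quantile normalization and 9 with the ACTB covariate. ID1 read 13.7, 10.7 and 9.71 with vehicle and 91.6, 67.1 and 75.8 with PLS-123 (at least 5.31-fold higher, dim with vehicle, adjusted p = 1e-07). SMAD7 read 55.9, 50.3 and 52 with vehicle and 188, 162 and 151 with PLS-123 (1.66 ± 0.09, adjusted p = 3.63e-08), and SMAD6 read 33.1, 20.7 and 20.1 with vehicle and 75.8, 75 and 69.7 with PLS-123 (1.62 ± 0.15, adjusted p = 4.69e-06) by 1 of 4 probe sets. SMAD1 read 660, 713 and 658 with vehicle and 1608, 1543 and 1597 with PLS-123 (1.23 ± 0.08), and all 3 of its probe sets rose. In these 4 genes the PLS-123 arrays lay above all vehicle arrays. SMAD9 (0.88 ± 0.11), ID4 (0.85 ± 0.13) and ID3 (0.71 ± 0.08), named after their values were seen, rose as well. SMAD3, which answers to TGF-β rather than to bone morphogenetic proteins, fell by 0.48 ± 0.09, and SMAD2, SMAD4 and SMAD5 did not pass (-0.12 ± 0.07, 0.38 ± 0.13 and 0.02 ± 0.10), although SMAD4 did after quantile normalization (adjusted p = 0.0412). The promoter of SMAD6 is shown because it held the palindrome of the SMAD binding element, GTCTAGAC, which was found in 0.124% of 15384 promoter windows and in 1 of the 15 windows of this list. The capitals mark that palindrome in the 80 bases before the start of the gene (RefSeq, GRCh38.p14, chr15:66702156-66702235, forward strand).
SMAD6: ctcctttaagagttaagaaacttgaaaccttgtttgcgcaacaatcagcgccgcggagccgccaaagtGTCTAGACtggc

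Of 853 measured metabolic genes 139 fell (16.3%) and 74 rose (8.68%), beside 12.8% and 7.54% of all genes. The counts were 113 and 97 after quantile normalization, 45 and 41 with the ACTB covariate and 26 and 31 with a further threshold of 1.5-fold, so the prevailing direction was not fixed. Among these lists amino acid handling, the citrate cycle and polyamine synthesis held the largest shares of falls, and single genes of lipid and glucose metabolism rose.

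Several genes for the uptake and synthesis of amino acids fell, among them targets of ATF4, the factor of the amino acid response. Of 31 amino acid transporters 8 fell (25.8%) and 4 rose (12.9%). SLC7A11, which imports cystine, read 206, 203 and 204 with vehicle and 33.8, 32.7 and 36 with PLS-123 (-2.58 ± 0.09, adjusted p = 5.26e-10). SLC7A5, the importer of large neutral amino acids, read 1752, 1770 and 1677 with vehicle and 1183, 1098 and 1106 with PLS-123 (-0.62 ± 0.08), SLC7A7 changed by -0.90 ± 0.10 and SLC1A4 by -0.69 ± 0.08. The 4 gains were at most 0.53 ± 0.08 (SLC7A6, another carrier, by 1 of 3 probe sets). Of 32 genes of amino acid synthesis and breakdown 8 fell and 1 rose. KMO, an enzyme of tryptophan breakdown, read 360, 414 and 392 with vehicle and 35.9, 33.7 and 38.5 with PLS-123 (-3.43 ± 0.11), and ASNS, which makes asparagine, read 2001, 1914 and 2071 with vehicle and 985, 1016 and 1039 with PLS-123 (-0.98 ± 0.08, adjusted p = 1.03e-06), by 1 of 2 probe sets. PSAT1 (-0.44 ± 0.11) and PHGDH (-0.34 ± 0.09), enzymes of serine synthesis, fell less and lost their calls without PLS-123 B or vehicle C (PSAT1, adjusted p = 0.0549 and 0.0566) and without PLS-123 A or vehicle A (PHGDH, 0.0569 and 0.0554), and 5 of 31 genes of one-carbon metabolism fell while 3 rose. CHAC1, which degrades glutathione, read 319, 351 and 318 with vehicle and 62.9, 62.4 and 59.9 with PLS-123 (-2.42 ± 0.11), and SESN2, a leucine sensor, read 208, 233 and 200 with vehicle and 82.3, 87.6 and 81 with PLS-123 (-1.35 ± 0.09). Among 25 stress factors 7 fell and 2 rose: ATF5 read 1538, 1575 and 1573 with vehicle and 571, 529 and 576 with PLS-123 (-1.48 ± 0.08, adjusted p = 2.22e-08), DDIT3, the factor CHOP, changed by -1.08 ± 0.12, and ATF4 itself read 5008, 5272 and 5387 with vehicle and 4550, 4237 and 4293 with PLS-123 (-0.26 ± 0.07, adjusted p = 0.0276). The call of ATF4 was lost without PLS-123 B or C or vehicle B or C (highest adjusted p = 0.0934).

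ATF4 binds with C/EBP factors to a composite element, here searched on both strands as TGATGNAA. It was found in 2.62% of 15384 promoter windows (250 bases before to 50 after the start of a gene), in 2.63% of those of genes that fell, and in 4 of 22 windows of amino acid transporters. No match was found for any amino acid transporter named above, nor for SESN2, ATF5 or DDIT3. SLC7A5, SLC7A7, SESN2, ATF5 and DDIT3 had a window, since other motifs were found there. Not every gene had a window, and SLC7A11, SLC1A4 and SLC7A6 may have lacked one. The promoters of ASNS, CHAC1 and GOT1, an aminotransferase that fell by 0.52 ± 0.08, are shown because the match lies before the gene start in all 3. The capitals mark the match, which no match of the other 8 motifs searched overlapped. Each stretch ends at the base before the start (RefSeq, GRCh38.p14): chr7:97872409-97872508, reverse strand for ASNS, chr15:40953241-40953470, forward strand for CHAC1 and chr10:99430625-99430834, reverse strand for GOT1.
ASNS: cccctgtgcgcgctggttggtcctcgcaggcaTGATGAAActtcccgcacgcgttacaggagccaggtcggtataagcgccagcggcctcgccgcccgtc
CHAC1: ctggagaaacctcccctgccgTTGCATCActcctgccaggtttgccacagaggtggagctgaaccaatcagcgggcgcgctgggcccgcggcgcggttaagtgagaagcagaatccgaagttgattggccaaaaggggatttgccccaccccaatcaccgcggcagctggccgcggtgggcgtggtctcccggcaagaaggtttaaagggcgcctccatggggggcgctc
GOT1: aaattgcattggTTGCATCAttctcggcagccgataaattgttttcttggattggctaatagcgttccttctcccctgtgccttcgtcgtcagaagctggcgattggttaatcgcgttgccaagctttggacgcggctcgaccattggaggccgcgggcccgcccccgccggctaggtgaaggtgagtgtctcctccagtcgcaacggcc
A match is a description of these letters and does not show binding.

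Of 33 genes of the citrate cycle and pyruvate oxidation, 11 fell (33.3%) and 3 rose, or 4 and 1 with the ACTB covariate. IDH3A, a subunit of the NAD-dependent isocitrate dehydrogenase, read 354, 344 and 379 with vehicle and 258, 205 and 216 with PLS-123 (-0.67 ± 0.11), OGDH, of the oxoglutarate dehydrogenase complex, read 241, 249 and 230 with vehicle and 150, 155 and 154 with PLS-123 (-0.65 ± 0.09), and MDH1, the cytosolic malate dehydrogenase, changed by -0.53 ± 0.07. IDH2, the NADP-dependent mitochondrial enzyme, rose by 0.59 ± 0.09, and SUCLG2, a subunit of succinyl-CoA ligase, by 0.62 ± 0.17. The call of SUCLG2 was lost without PLS-123 A or C or vehicle A or B (highest adjusted p = 0.0875). CS, citrate synthase, did not pass the test (-0.18 ± 0.09, adjusted p = 0.208). Of 75 genes of the respiratory chain and ATP synthase 14 fell and 1, NDUFA5 (0.71 ± 0.22), rose, a call lost without any 1 array other than PLS-123 B (highest adjusted p = 0.16). The largest of these falls was that of NDUFS7 (-0.46 ± 0.08), a subunit of complex I, and their number was 28 with an intensity trend, 5 without PLS-123 array C, 5 without vehicle array B and 1 with the ACTB covariate.

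In glycolysis and glucose uptake 9 of 38 genes fell and 5 rose. TXNIP, which restrains glucose uptake, read 101, 91.1 and 95 with vehicle and 346, 358 and 315 with PLS-123 (1.83 ± 0.09, adjusted p = 8.91e-09). SLC2A5, a fructose transporter, read 1869, 1957 and 1819 with vehicle and 4311, 4128 and 4128 with PLS-123 (1.16 ± 0.07), and the glucose transporters SLC2A1 and SLC2A3 changed by 0.48 ± 0.10 and -0.52 ± 0.13. ENO2, an enolase, read 135, 132 and 112 with vehicle and 47.9, 48.3 and 47.5 with PLS-123 (-1.40 ± 0.09), PFKFB3, which activates phosphofructokinase, changed by -0.56 ± 0.11, and HK2 (-0.16 ± 0.08) and LDHA (-0.08 ± 0.07) did not pass the test. The promoter of TXNIP is shown because it held the core forkhead motif TGTTTAC, here on the opposite strand and in capitals. The motif was found in 2.62% of all promoter windows, in 4.23% of those of genes that rose and in 1.63% of those of genes that fell. The 150 bases end before the gene start (RefSeq, GRCh38.p14, chr1:145996580-145996729, reverse strand).
TXNIP: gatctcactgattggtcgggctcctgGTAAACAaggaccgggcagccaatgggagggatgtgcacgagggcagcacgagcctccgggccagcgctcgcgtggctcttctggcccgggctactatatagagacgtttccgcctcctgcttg

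Lipid genes moved singly. Of 32 genes of fatty acid synthesis, desaturation and storage 4 fell and 5 rose. ELOVL6, which lengthens saturated fatty acids, read 506, 484 and 508 with vehicle and 2210, 1947 and 2105 with PLS-123 (2.06 ± 0.11, adjusted p = 3.02e-08), by all 3 of its probe sets. LPIN1, a phosphatase that makes diacylglycerol, rose by 0.94 ± 0.08, and ADTRP, a hydrolase of fatty acid esters that was dim with vehicle, rose at least 10.3-fold. FASN, fatty acid synthase, did not pass (-0.08 ± 0.09). Of 26 cholesterol genes 5 fell and 1 rose, with ABCA1, an exporter of cholesterol, at -0.72 ± 0.10 and HMGCS1, an early enzyme of its synthesis, at 0.15 ± 0.12 without passing. In sphingolipid and phospholipid metabolism 6 of 47 fell and 7 rose, or 3 and 10 after quantile normalization; CERK, which phosphorylates ceramide, read 186, 197 and 191 with vehicle and 452, 442 and 446 with PLS-123 (1.22 ± 0.08), and DEGS2, a dihydroceramide desaturase, changed by -1.08 ± 0.14.

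Of 16 polyamine genes 6 fell (37.5%) and 2 rose. ODC1, the first enzyme of the pathway, read 6581, 6844 and 6781 with vehicle and 4923, 5013 and 4623 with PLS-123 (-0.47 ± 0.07, adjusted p = 0.000509), and SRM, spermidine synthase, fell by 0.42 ± 0.08. Among 42 genes of purine and pyrimidine synthesis 9 fell and 4 rose. The paired enzymes of cytidine triphosphate synthesis parted, CTPS1 at -0.44 ± 0.08 and CTPS2 at 0.96 ± 0.09, and DCTD, which deaminates deoxycytidine monophosphate, rose by 1.04 ± 0.10. NADK2, the mitochondrial NAD kinase, rose by 1.09 ± 0.15. Among all 342 solute carriers 41 fell and 31 rose. The largest gains were SLC26A2, a sulphate transporter (1.65 ± 0.11), and SLC22A5, a carnitine transporter (1.62 ± 0.11).

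**Figure D4:**
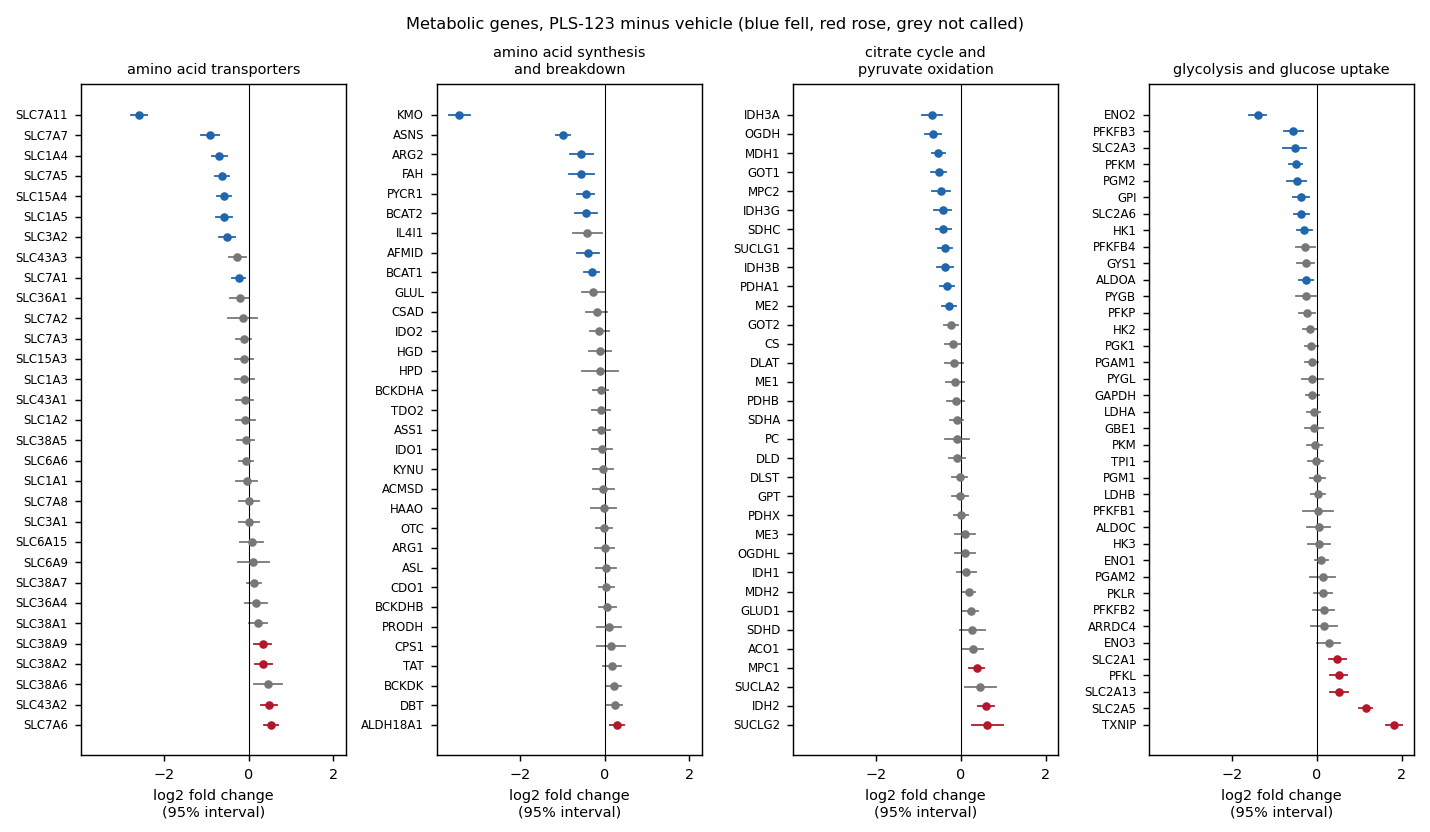
Log2 fold change, PLS-123 minus vehicle, with its 95% confidence interval for each measured gene of 4 metabolic lists, sorted within a list (blue fell, red rose, grey not called). The lists run from SLC7A11 (-2.58) to SLC7A6 (0.53), from KMO (-3.43) to ALDH18A1 (0.30), from IDH3A (-0.67) to SUCLG2 (0.62) and from ENO2 (-1.40) to TXNIP (1.83).

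Cell cycle genes changed in many members, mostly by little. Of 387 measured, 78 fell (20.2%) and 52 rose (13.4%), beside 12.8% and 7.54% of all genes. However, 55 fell and 67 rose after quantile normalization and 27 changed each way with the ACTB covariate, so the prevailing direction was not fixed. Without PLS-123 array C 48 fell, and without vehicle array B 49.

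Several cyclins and kinases of entry into the cycle fell, and an inhibitor of them rose. Of 28 G1 and S cyclins and their kinases 7 fell (25.0%) and 1 rose. CCND3, cyclin D3, read 1850, 1800 and 1775 with vehicle and 795, 800 and 769 with PLS-123 (-1.20 ± 0.08, adjusted p = 2.39e-07), CDK6, its partner kinase, read 1020, 1068 and 1027 with vehicle and 658, 626 and 660 with PLS-123 (-0.68 ± 0.07), and CCNE1, cyclin E1, read 284, 298 and 280 with vehicle and 179, 175 and 176 with PLS-123 (-0.70 ± 0.08). In each of the 3 genes the groups did not overlap. CDC25A, a phosphatase that activates these kinases, fell by 0.55 ± 0.08, and CCND2 was dim in both groups and did not pass. CDKN1B, the inhibitor p27, read 121, 146 and 150 with vehicle and 468, 369 and 432 with PLS-123 (1.60 ± 0.14, adjusted p = 2.55e-06). CDKN1A, the inhibitor p21 and a p53 target, read 40.1, 36.8 and 40.1 with vehicle and 32.8, 37.4 and 44.4 with PLS-123, with overlapping groups (-0.04 ± 0.12, adjusted p = 0.87), and CDKN2D fell by 0.66 ± 0.14, a call lost by the methods' t-test (adjusted p = 0.0884) and with the ACTB covariate (0.139). CDKN1C, dim in both groups, rose (adjusted p = 0.0172), a call lost without PLS-123 A or C or vehicle A or C (highest adjusted p = 0.0763), by the methods' t-test (0.188) and with the ACTB covariate (0.0849). Among 20 RB, E2F and DREAM factors 4 fell and 2 rose. The activators E2F2 and E2F1 changed by -0.69 ± 0.09 and -0.49 ± 0.09, and the repressor E2F7 read 224, 228 and 232 with vehicle and 398, 397 and 390 with PLS-123 (0.79 ± 0.07).

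Genes of DNA replication moved little. Of 31 genes of origin licensing and firing 5 fell and 0 rose, or 9 and 0 at an unadjusted p under 0.05 by limma. By the methods' t-test with Benjamini-Hochberg adjustment 5 fell and 0 rose. CDC45, of the replicative helicase, changed by -0.32 ± 0.09 (not called without PLS-123 A or C or vehicle A, highest adjusted p = 0.0672). MCM2, another subunit of that helicase, changed by 0.03 ± 0.10 (adjusted p = 0.86). Of 40 genes of the replication fork 9 fell and 2 rose, or 3 and 1 without PLS-123 array C, 3 and 1 without vehicle array B, and 0 and 1 with the ACTB covariate. PCNA, the sliding clamp, read 4223, 4042 and 4389 with vehicle and 5081, 4878 and 5280 with PLS-123 (0.27 ± 0.10) and did not pass the test, although it did with an intensity trend (adjusted p = 0.0109).

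Several kinases that drive entry into mitosis fell, while single parts of the mitotic machinery rose. Of 29 genes of mitotic entry 11 fell (37.9%) and 2 rose, or 7 and 2 after quantile normalization. PLK1, a kinase of mitotic entry, read 255, 259 and 248 with vehicle and 177, 173 and 157 with PLS-123 (-0.59 ± 0.10, adjusted p = 0.000871), and AURKA, Aurora A, read 2267, 2138 and 2244 with vehicle and 1514, 1459 and 1515 with PLS-123 (-0.57 ± 0.08). NEK6 changed by -0.87 ± 0.11. CCNB1, cyclin B1, fell by 0.35 ± 0.09 on the probe set used here, while its other probe set rose, and CDK1 did not pass (0.14 ± 0.10), although 2 of its 4 probe sets fell. CDC25B, an activator of CDK1, rose by 0.65 ± 0.09. Of 40 genes of the anaphase promoting complex and of chromosome separation 11 fell and 3 rose: MKI67, the proliferation antigen Ki-67, read 889, 930 and 872 with vehicle and 682, 590 and 615 with PLS-123 (-0.52 ± 0.10, adjusted p = 0.002), CDC20 read 1620, 1727 and 1660 with vehicle and 1263, 1241 and 1168 with PLS-123 (-0.45 ± 0.08), WAPL, which releases cohesin, changed by -0.79 ± 0.08, and TOP2A, a topoisomerase, rose, with readings of 1503, 1552 and 1694 to 2355, 2102 and 2325 (0.51 ± 0.10). Of 48 genes of the spindle checkpoint and kinetochore 11 fell and 5 rose. SGO1, the guardian of sister centromeres, changed by -0.70 ± 0.09, and the checkpoint genes BUB1 and MAD1L1 rose by 0.79 ± 0.10 and 1.03 ± 0.10. Cytokinesis genes and mitotic kinesins had 3 of 31 lower and 5 higher, or 2 and 10 after quantile normalization, KIF11 (0.47 ± 0.13) and KIF14 (0.41 ± 0.10) among the gains. The call of KIF11 was lost without any 1 array other than vehicle A (highest adjusted p = 0.0929) and that of KIF14 without PLS-123 A, vehicle A or vehicle B (highest adjusted p = 0.0631). With the ACTB covariate MKI67 (adjusted p = 0.0821), CCNB1 (0.0805), TOP2A (0.117), KIF11 (0.514) and KIF14 (0.226) were not called.

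The cell cycle genes homology region (CHR), TTTGAA, is an element of promoters that are silent in quiescent cells and active in mitosis. It was found in 11.9% of all promoter windows, on either strand, in 8 of 22 windows of mitotic entry genes (36.4%), 17 of 40 of spindle genes (42.5%), 13 of 37 of the separation list (35.1%) and 17 of 29 of the cytokinesis list (58.6%). Other lists ranged widely. The element was found in 5 of 10 windows of Toll-like receptors (50.0%), 16 of 51 of histone genes (31.4%) and 8 of 27 of costimulation genes (29.6%). It was found in 1 of 27 of origin licensing genes (3.7%) and 3 of 64 of the respiratory chain (4.69%). Over the array it was found in 9.72% of the windows of genes that fell and in 10.9% of those of genes that rose. The promoters of PLK1 and CDC20, which fell, and of KIF11 and TOP2A, which rose, are shown because genes with the same element moved in opposite directions. The capitals mark the element, which no match of the other motifs overlapped, and each stretch ends at the base before the gene start (RefSeq, GRCh38.p14): chr16:23678809-23678888, forward strand for PLK1, chr1:43358901-43358980, forward strand for CDC20, chr10:92593050-92593129, forward strand for KIF11 and chr17:40417897-40418096, reverse strand for TOP2A.
PLK1: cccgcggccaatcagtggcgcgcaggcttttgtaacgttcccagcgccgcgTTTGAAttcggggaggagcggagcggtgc
CDC20: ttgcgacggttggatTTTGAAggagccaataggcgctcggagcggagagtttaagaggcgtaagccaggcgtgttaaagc
KIF11: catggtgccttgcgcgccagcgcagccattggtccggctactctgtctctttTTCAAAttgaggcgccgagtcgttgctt
TOP2A: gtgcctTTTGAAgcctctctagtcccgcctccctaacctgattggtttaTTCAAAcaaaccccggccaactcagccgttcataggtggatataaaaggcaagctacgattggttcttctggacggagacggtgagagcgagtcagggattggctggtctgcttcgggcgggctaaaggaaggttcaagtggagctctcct

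Several genes tied to growth arrest and quiescence rose. Of 34 measured, 10 rose (29.4%) and 4 fell, with the same counts under the ACTB covariate and 12 and 4 after quantile normalization. YPEL2, a gene of the yippee family, read 17.3, 16.7 and 20.5 with vehicle and 96, 72 and 96.2 with PLS-123 (2.27 ± 0.14). GADD45A, a stress gene that halts the cycle, read 359, 375 and 363 with vehicle and 1217, 1264 and 1191 with PLS-123 (1.74 ± 0.09, adjusted p = 2.22e-08), and ZFP36L2, which speeds the decay of mRNA, read 246, 260 and 265 with vehicle and 570, 589 and 599 with PLS-123 (1.19 ± 0.09). All 3 genes were above the vehicle range on every PLS-123 array. MXI1 and TXNIP, given above, belong to this list, as does BCL6 among its falls. Among 29 checkpoint and repair genes 8 fell and 5 rose, led by HMCES, which shields abasic sites in DNA and read 2071, 1830 and 1952 with vehicle and 193, 206 and 237 with PLS-123 (-3.21 ± 0.09). Of 54 histone genes 15 rose (27.8%) and 4 fell, with H2AC17 at 1.60 ± 0.13 and H2AC8 at 1.36 ± 0.14. Histone genes are near-identical copies, so their probe sets may read each other's transcripts.

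**Figure D5:**
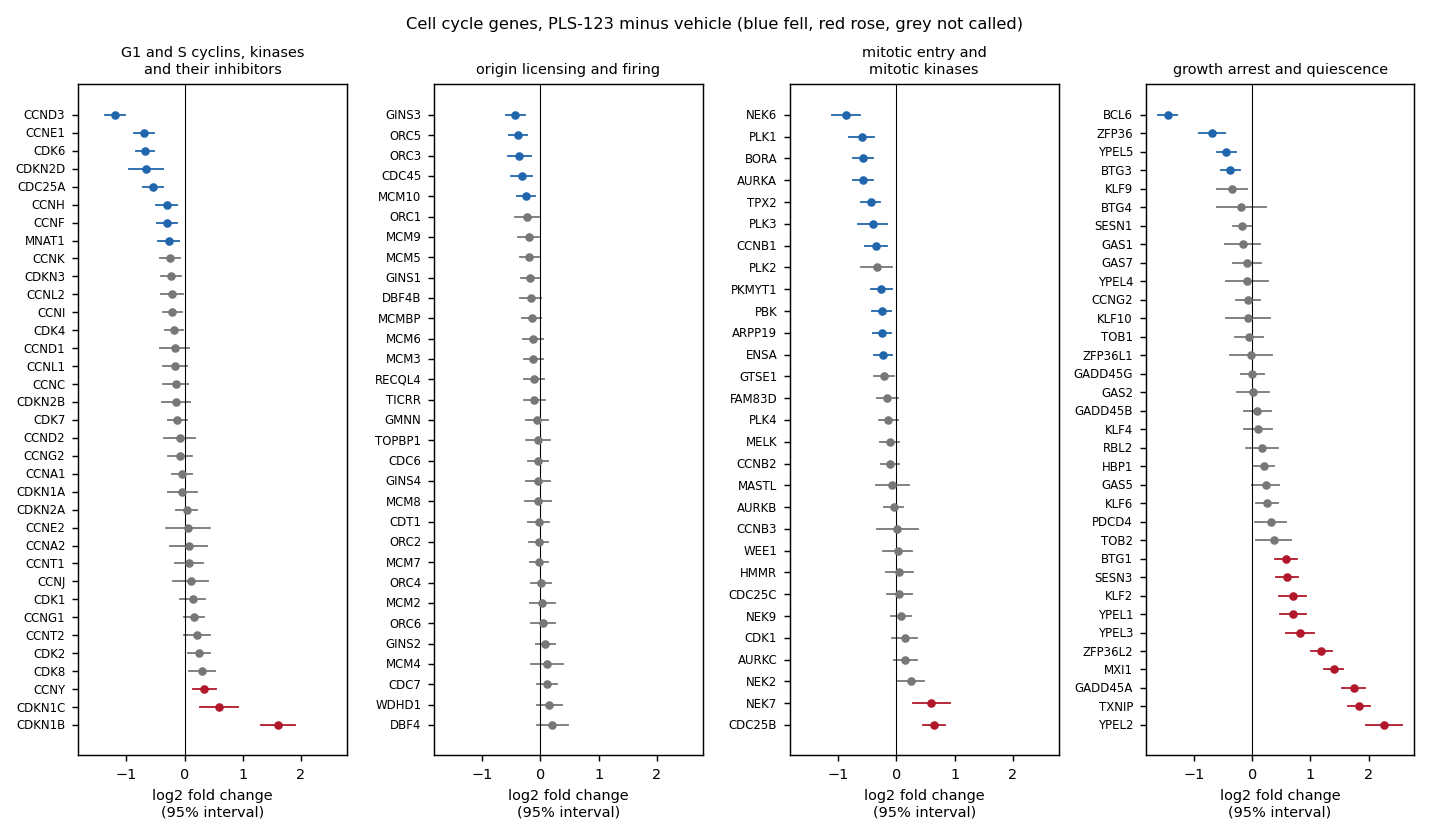
Log2 fold change, PLS-123 minus vehicle, with its 95% confidence interval for each measured gene of 4 groups of cell cycle genes, sorted within a group (blue fell, red rose, grey not called). CCND3 (-1.20) and CDKN1B (1.60) bound the first group, and the last reaches from BCL6 (-1.45) to YPEL2 (2.27).

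Set directly against ibrutinib at the matched dose of 1 μM, in the same model, 2001 genes were lower with PLS-123 (10.1%) and 1143 higher (5.78%). This comparison shares the PLS-123 arrays with that against vehicle. By category, 53 of 515 surface genes were lower and 42 higher, 93 and 82 of 935 transcription factors, 122 and 55 of 853 metabolic genes and 60 and 44 of 387 cell cycle genes. For surface genes the difference was -1.96 (95% confidence interval -2.16 to -1.75) for TNFRSF17, 1.48 (95% confidence interval 1.33 to 1.64) for MME and 2.41 (95% confidence interval 2.17 to 2.66) for ACKR3. For transcription factors it was -1.53 (95% confidence interval -1.69 to -1.36) for BCL6, -0.81 (95% confidence interval -1.03 to -0.58) for IRF4 and 1.63 (95% confidence interval 1.43 to 1.83) for SMAD7. Among metabolic and cell cycle genes it was 1.54 (95% confidence interval 1.30 to 1.78) for ELOVL6, -0.99 (95% confidence interval -1.15 to -0.82) for ASNS, -1.16 (95% confidence interval -1.33 to -0.98) for CCND3 and 1.36 (95% confidence interval 1.06 to 1.65) for CDKN1B. These 10 differences had adjusted p values of at most 0.000128 (IRF4). In 3 genes that rose against vehicle the difference from 1 μM ibrutinib did not pass the test: 0.25 (95% confidence interval -0.04 to 0.54) for KIF11, 0.48 (95% confidence interval 0.11 to 0.85) for SUCLG2 and 0.34 (95% confidence interval 0.09 to 0.59) for B2M. For CD79A it was -0.18 (95% confidence interval -0.37 to 0.01) and for ATF4 -0.19 (95% confidence interval -0.35 to -0.03), again without passing.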

How the data were processed

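RNA of 12 OCI-Ly7 samples was hybridised to 1 array each, and the values used are intensities on a linear scale that the authors had normalised by RMA over the arrays and deposited. The version of RMA is not given in the sources used here, and the raw scans were not used here. Intensities were taken to log2 with nothing added, and ran from 2.09 to 15751 with array medians of 14.2 to 14.8. The number of arrays limits the precision.

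After 62 control probe sets were left out, limma 3.58.1 in R 4.3.3 was fitted to 54613 probe sets on all 12 arrays with a mean per group, which gave 8 residual degrees of freedom. The contrast was PLS-123 minus vehicle, with Benjamini-Hochberg adjustment over all probe sets. Symbols came from GEO's platform annotation, updated through gene ID, with 1 symbol for 41091 probe sets, several for 1801 and none for 11721. Gene lists, members and tests were chosen with earlier results of these data known. Genes were named from the 15 largest rises and falls whose groups did not overlap, the 10 largest each way with a mean log2 of at least 8 in the higher group, and in each list the first 2 members and up to 5 rises and 5 falls, with uncalled members beside them. Not every gene so picked is named, and the lowest change over all genes (-5.12) belongs to none of those named. RefSeq promoter windows (GRCh38.p14) were matched by symbol for 15384 of 19775 genes. The fits were tested on simulated data. Alternatives were the methods' t-test, the pair of groups alone, an intensity trend, a replicate block, other scalings, other choices of probe set, an RNA quality covariate, a fold threshold and leaving out each array.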

Additional observations from a re-analysis of the deposited data

How the results depend on the processing

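The methods' t-test with Benjamini-Hochberg adjustment gave 3398 probe sets lower and 1733 higher, 76 transcription factors lower and 59 higher, and 44 metabolic genes higher, or 8563 and 4989 probe sets at an unadjusted p under 0.05. With the ACTB covariate 1928 probe sets were lower and 1552 higher, with 38 surface genes lower, 44 transcription factors lower and 58 higher, 45 metabolic genes lower and 41 higher, and 27 cell cycle genes each way. With a further threshold of 1.5-fold the counts were 1389 and 1490 probe sets, 38 and 24 surface genes, 30 and 51 transcription factors, 26 and 31 metabolic genes, and 15 and 27 cell cycle genes, lower and higher in turn. Leaving out 1 array at a time gave 3805 to 4947 probe sets lower and 2493 to 3320 higher. By category it gave 54 to 63 surface genes lower and 38 to 41 higher, 72 to 106 transcription factors lower and 77 to 102 higher, 98 to 128 metabolic genes lower and 52 to 71 higher, and 48 to 68 cell cycle genes lower and 39 to 51 higher. The low of transcription factors came without vehicle array B, and those of cell cycle genes were 48 without PLS-123 array C and 49 without vehicle array B. All other alternatives left each of these counts within 1.5 times its value, among them centring on the median of the controls, which was chosen after seeing the data. Probe set counts have no value where 1 probe set, or the median, stood for a gene.

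The sample letters carry no stated pairing, and samples of the same letter correlated at -0.039 (A), 0.103 (B) and -0.0185 (C) over 27307 probe sets, after group means were removed. A paired fit with the letter as a replicate block gave 5301 probe sets lower and 3403 higher and changed no call of the 204 genes described.

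Of these genes, a further threshold of 1.5-fold lost the call of 37, the ACTB covariate that of 26, the median over a gene's probe sets that of 21 whose sign held, the methods' t-test that of 17, leaving out 1 array that of 5 to 11, quantile normalization that of 3, and the pair of groups alone and each centring on the controls that of 2. With the covariate the genes were ALDH18A1, ATF4, B2M, CCNB1, CD79A, CDC45, CDKN1C, CDKN2D, CTPS1, E2F1, HDAC10, IFNAR1, JUN, KIF11, KIF14, LY9, MKI67, NDUFA5, PAX5, PHGDH, SMAD3, SRM, SUCLG2, TGFBR1, TOP2A and XBP1. By the t-test they were CD79A, CDKN1C, CDKN2D, EBF1, EGR1, HDAC10, ID4, JUN, KIF14, LY9, NDUFA5, PFKFB3, SLC2A1, SLC2A3, SUCLG2, XBP1 and ZAP70. By the median over probe sets they were ABCA1, AFF3, ALDH18A1, BUB1, CCNB1, CD79A, CDC25A, CDKN1C, FOXN3 and HDAC10. To these were added JUN, LOXL2, MKI67, NADK2, NDUFA5, NFATC1, OGDH, SLC2A3, SMAD6, TGFBR1 and XBP1. Some calls were gained: HLA-DRA, MYC, PCNA and SMAD4 with an intensity trend and without dim probe sets, MYC and SMAD4 after quantile normalization, SMAD4 after centring on the mean of the controls and with 1 probe set per gene, HK2 by the t-test, HK2 and HLA-DRA by the median over probe sets, and CS and SMAD4 without PLS-123 array A. The sign turned where the median was taken over probe sets that disagree: CD79B -0.086, CDK1 -0.38, HES1 -0.42, HMGCS1 -0.10, IKZF2 -0.29, SLC7A6 -0.074, BACH2 -0.021, PRDM1 0.16 and SMAD5 -0.003. Of these, CDK1 gained a call as a fall by the median (adjusted p = 0.000901 by limma). HES1, which rose on its brightest probe set, passed the test as a fall by the median, and the others did not pass. In the other settings the sign turned only in genes that were not called. These were PRDM1 (0.004) after centring on the mean of the controls, and BACH2 (-0.012), FOS (-0.011), MCM2 (-0.027), NFKB1 (-0.031) and SMAD5 (-0.046) after centring on their median. With the covariate they were CCND2 (0.11), CDK1 (-0.004), FOS (-0.012), PRDM1 (0.010) and SMAD5 (-0.14). Without single arrays the range was -0.007 to 0.102 for BACH2, -0.18 to 0.011 for CCND2, -0.153 to 0.065 for CDKN1A, -0.005 to 0.101 for FOS, -0.029 to 0.094 for MCM2, -0.028 to 0.116 for NFKB1, -0.123 to 0.051 for PRDM1 and -0.053 to 0.094 for SMAD5. The cause of these shifts was not tested. Dim probe sets lie near background, and 3 arrays a group limit what can pass the test.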
